A study of Mus musculus with 32 samples.

Results

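Primary-granule neutrophil precursors were the cells in which *Mpo*, *Elane*, *Prtn3* and *Ctsg* together made up at least 0.5% of a cell's UMIs, the unique molecular identifiers that stand for single captured transcripts. The rule found 401 such cells among 90924 kept cells (0.441%), which were the barcodes with 400 to 6200 detected genes and at most 10% mitochondrial UMIs among 107853 barcodes of 16 pools. They are called primary-granule cells here. They were compared with 2061 secondary-granule cells, in which *S100a8*, *S100a9*, *Camp*, *Ngp*, *Ltf* and *Lcn2* made up at least 1% of UMIs and the 4 primary granule genes less than 0.5%.

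All cells came from one kind of culture. Marrow was flushed from the femurs of 77 Diversity Outbred (DO) mice, an outbred stock descended from several inbred founder strains, and bone marrow-derived stromal cells were grown to confluence and held for 10 days in a medium with ascorbic acid, β-glycerophosphate and dexamethasone that drives osteoblast formation (BMSC-OBs). Cells of 4 or 5 mice were mixed into a pool before droplet capture, and the labels give the pools no condition, age or treatment, so the comparisons below are between cells of the same pools. The pool is the replicate, and values of a pool average over its mice.

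Neutrophils arise from marrow progenitors through the promyelocyte, myelocyte and metamyelocyte stages. Their granules are filled in that order: the primary (azurophil) granules receive myeloperoxidase and the serine proteases elastase, proteinase 3 and cathepsin G at the promyelocyte stage, the secondary (specific) granules receive lactoferrin, lipocalin 2 and cathelicidin later, and gelatinase granules last. Transcription of the primary granule genes stops as cells mature, while the proteins persist, so transcripts of these genes mark the early stages. A stromal culture kept in osteogenic medium is not the usual place to look for such cells.

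The share of primary-granule cells differed widely between pools. It was lowest in pool 1 at 0.0131% (1 of 7643 kept cells, exact 95% binomial interval 0.000331% to 0.0729%) and highest in pool 7 at 1.15% (31 of 2684, 0.786% to 1.64%), with a mean of 0.472% ± 0.385 (SD, n = 16 pools). In 7 pools the share lay between 0.725% and 1.15%, and in the other 9 it lay between 0.0131% and 0.387%. Counting intervals of pools 1 and 7 do not overlap, and such intervals cover counting error only. By number, 10 pools held 10 or more of these cells, up to 64 in pool 18, and 6 pools held fewer.

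**Figure D1:**
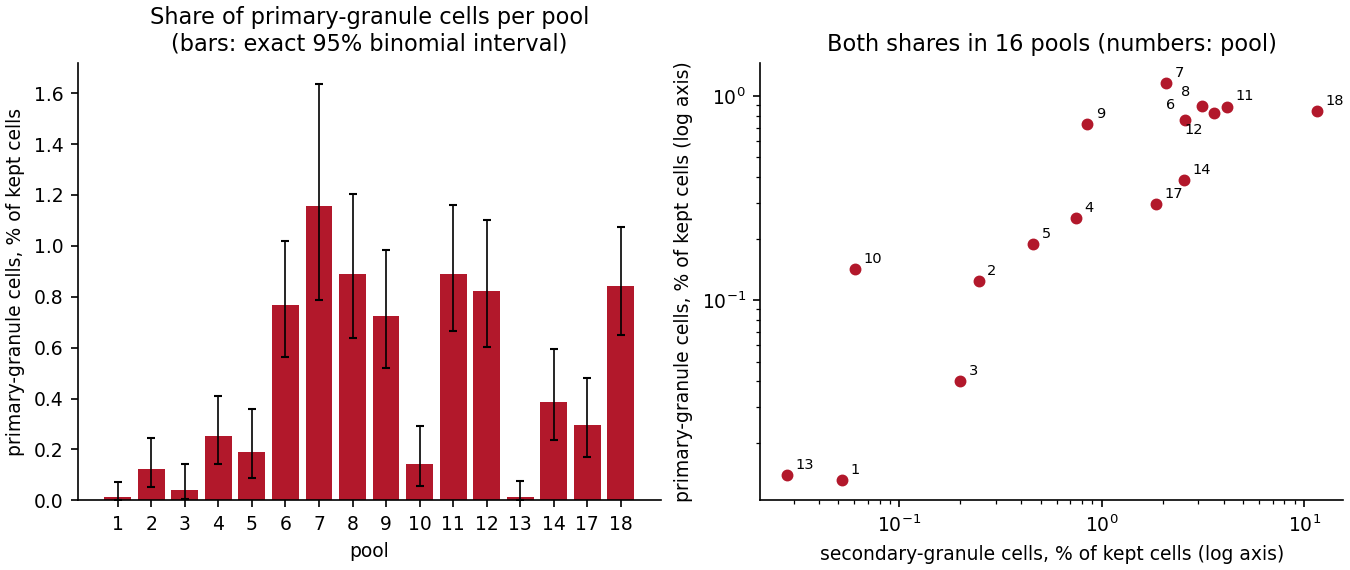
Left: the share of primary-granule cells among kept cells in each of 16 pools, with exact 95% binomial intervals. Right: the same share against that of secondary-granule cells on log axes, each point a pool; the 7 pools with the highest shares of primary-granule cells (0.725% to 1.15%) span secondary-granule shares from 0.849% in pool 9 to 11.6% in pool 18.

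Over all 16 pools, those with a higher share of primary-granule cells also had a higher share of secondary-granule cells. Both shares have the kept cells of the pool as denominator, which can move them together, and the permutations did not account for this. Over these pools Spearman's rho between both shares was 0.894 (permutation p = 2e-05, 2-sided) and Pearson's r was 0.599 (permutation p = 0.00367), and r was 0.789 without pools 11 and 18, which lay farthest from the median of the secondary-granule share. Among the 9 pools below the gap in the member share, rho was 0.933 (exact permutation p = 0.00075) and r was 0.899 (exact permutation p = 9.37e-05). Among the 7 pools above it, rho was 0.214 (exact permutation p = 0.662) and r was -0.0486 (exact permutation p = 0.875), so the relation was not detectable over these pools. The split was made on the share itself after it was seen, and it narrows the range of this share within each set. These tests therefore cannot decide whether the relation differs between the 2 sets of pools, and that difference was not tested. After Benjamini-Hochberg adjustment over these 6 tests the adjusted p were 0.00012, 0.00551, 0.0015, 0.000281, 0.794 and 0.875 in the same order. Pool 18 had 878 secondary-granule cells for 64 primary-granule cells, whereas pool 9 had 48 for 41. The labels give no batch other than the sequencing run, and each pool was 1 droplet sample, so mice and droplet capture cannot be told apart as sources of the spread.

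Primary-granule cells were deeper than the cells they were compared with. Their median was 8400 UMIs and 2145 genes per cell, against 2770 UMIs and 1051 genes in secondary-granule cells and 9358.5 UMIs in the 88462 kept cells of neither group. Secondary-granule cells were mixed: 814 had under 10% of UMIs from the 6 genes, at a median of 1725 UMIs per cell. The other 1247 had 10% or more, at a median of 3906 UMIs. Whether the 814 are the same kind of cell, and their part in the differences below, was not tested. Called doublets made up 2.99% of primary-granule cells (12 cells) and 5.61% of kept cells, with called doublets kept in the main analysis. The barcodes of 11 primary-granule cells were also called in another pool, and 1 barcode marked such a cell in 2 pools. More than 1% of UMIs came from the stromal genes *Col1a1*, *Col1a2*, *Col3a1* and *Sparc* in 37 primary-granule cells (9.23%) and in 574 secondary-granule cells (27.9%); the part of these transcripts in the results was not tested beyond the alternatives without such cells.

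The 4 genes that chose the cells are given as a description, with no test. *Elane* (neutrophil elastase) and *Prtn3* (proteinase 3) lie on chromosome 10 of GRCm38 on the plus strand, *Prtn3* at chr10:79874476-79883174 and *Elane* at chr10:79886247-79888215, with 3072 bases between them. *Mpo* (myeloperoxidase, which makes hypochlorous acid) lies at chr11:87793581-87804413 on the plus strand, and *Ctsg* (cathepsin G) at chr14:56099881-56102574 on the minus strand. *Prss57*, a further serine protease of azurophil granules that the rule did not use, lies on the minus strand at chr10:79781474-79790961, with 83514 bases between it and *Prtn3*.

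In the cells chosen, the 4 genes together made up 1.59% of a cell's UMIs at the median, from 0.505% to 5.21%. All 4 genes had a UMI in 349 of 401 cells, 3 genes in 40 cells and 1 or 2 genes in 12 cells. *Elane* was detected in 97.3% of primary-granule cells, in 9.66% of secondary-granule cells and in 0.725% of the other kept cells. *Ctsg* was detected in 91.8%, 5.48% and 0.63% of these cells. In the other kept cells *Mpo* was detected in 3.75% and *Prtn3* in 2.11%. Of these cells, 93.4% had no UMI of any of the 4 genes, which made up 0.001% of their UMIs. The source of these transcripts was not tested.

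Just inside the limit, the 5 cells nearest to it had between 0.505% and 0.52% of UMIs from the 4 genes, and the 5 nearest cells outside had between 0.486% and 0.4998%. Between 0.4% and 0.5% there were 30 kept cells, and between 0.5% and 0.6% there were 31, so the limit does not fall in an empty stretch. Beyond the limits on genes and mitochondrial UMIs, 78 further barcodes had at least 0.5% of UMIs from the 4 genes.

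**Figure D2:**
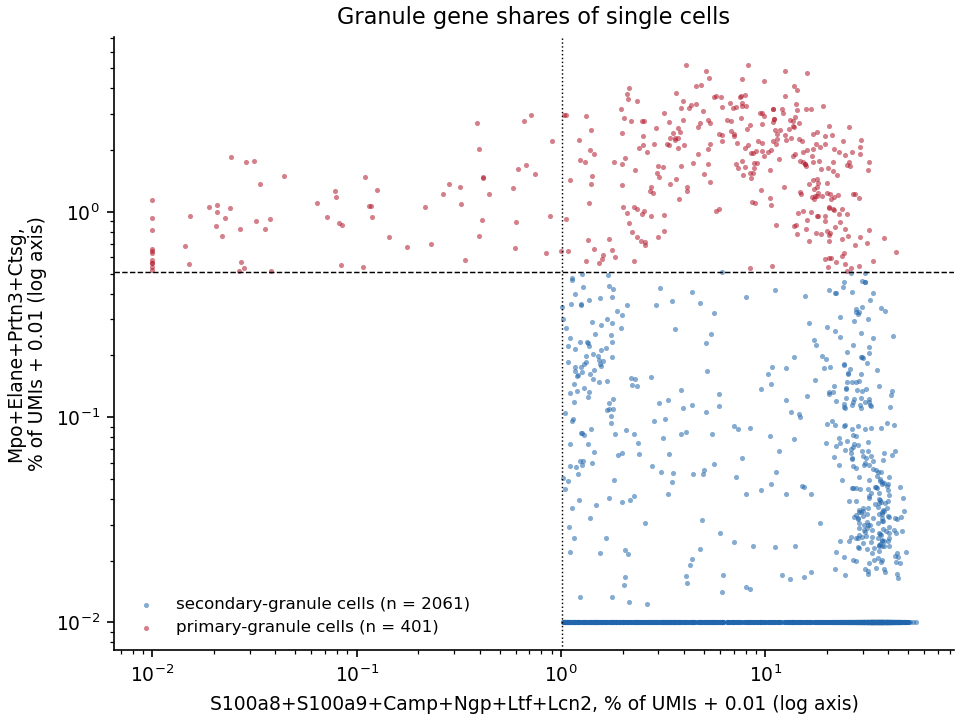
Each point is a cell, with the share of UMIs from the 6 secondary granule genes on the x axis and from the 4 primary granule genes on the y axis (both log axes, 0.01 added). The dashed line is the 0.5% limit that chose the 401 primary-granule cells and the dotted line the 1% limit; 326 primary-granule cells lie at or right of the dotted line and 75 lie left of it.

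Across the 10 pools with at least 10 cells of each group, the shares of the genes in the UMIs of primary-granule cells differed from pool to pool. The 0.5% limit sets a floor for the sum of the 4 genes. *Elane* was lowest at 0.408% of UMIs in pool 8, had a median of 0.584% and was highest at 0.817% in pool 4. *Prtn3* ranged from 0.468% in pool 8 through a median of 0.593% to 0.749% in pool 9. *Mpo* ranged from 0.227% in pool 18 through 0.335% to 0.478% in pool 4. *Ctsg* ranged from 0.169% in pool 6 through 0.197% to 0.336% in pool 4. Pool 4 was highest for 3 of the 4 genes. The same pool was highest for all 4 in secondary-granule cells, where *Mpo* reached 0.0247% there against a median of 0.00164%.

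Within the cells, the 4 genes fell into pairs. Over the 401 cells, the shares were log-transformed after a constant was added. *Elane* and *Prtn3* then had a Pearson correlation of 0.712 and *Mpo* and *Ctsg* of 0.557. The other 4 pairs lay between 0.157 and 0.343. These are descriptions across cells that share pools and depth and were chosen on the sum of the genes. The pairs also separated when the cells were split by their share of the 6 secondary granule genes. *Elane* rose in level from 0.24% of UMIs in the 75 cells with under 1% of these genes to 0.753% in the 170 cells with 1% to 10% and was 0.65% in the 156 cells with at least 10%. *Prtn3* was at 0.294%, 0.686% and 0.657% in the same order. *Mpo* instead was at 0.342%, 0.402% and 0.205%, and *Ctsg* at 0.224%, 0.27% and 0.119%, so that both were lowest where the secondary granule genes were highest.

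Pool by pool, the pattern held in each pool with at least 5 cells in the bins compared. *Mpo* was lower at 10% or more than at 1% to 10% in 10 of 10 pools, and *Ctsg* was lower in 10 of 10. *Elane* was higher at 1% to 10% than at under 1% in 6 of 6 pools, and *Prtn3* in 6 of 6. These genes chose the cells, so the counts carry no test.

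**Figure D3:**
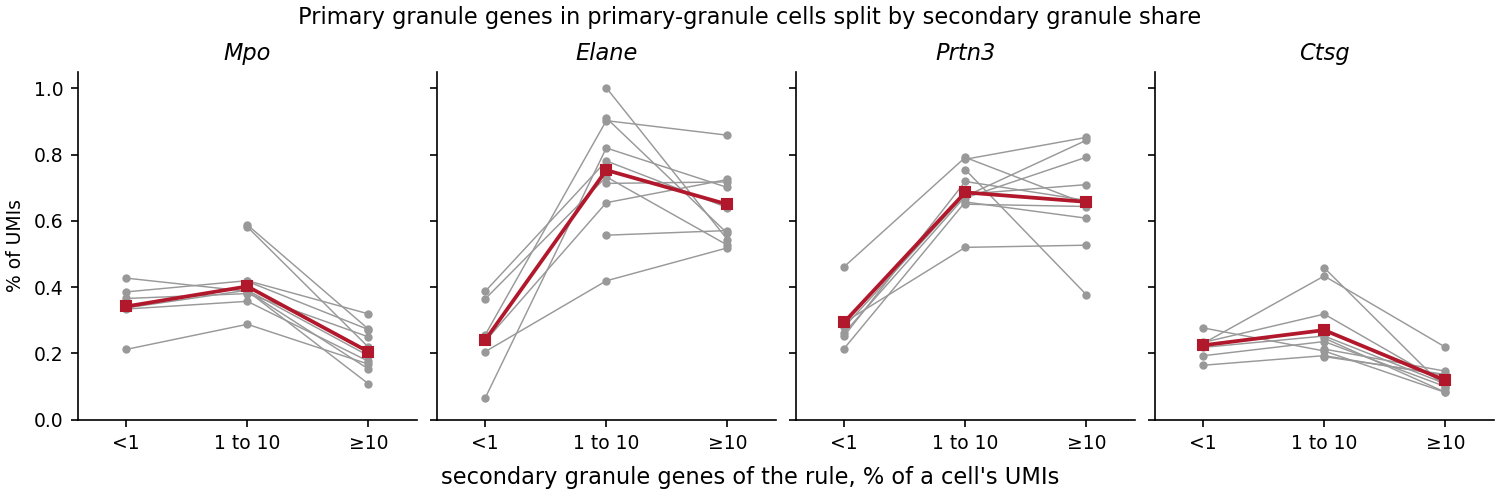
Shares of UMIs of the 4 primary granule genes in primary-granule cells split by their share of the 6 secondary granule genes (under 1%, 1% to 10%, 10% or more). Gray lines are pools with at least 5 cells in a bin and red squares are all cells of a bin; *Elane* and *Prtn3* are lowest in the left bin, *Mpo* and *Ctsg* in the right bin.

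The promoters of the 4 genes are shown because these genes mark the cells and because *Elane* and *Prtn3*, neighbors on the chromosome, were the pair with the highest correlation. The windows run from 250 bases before to 50 after the RefSeq start (GRCm38.p6), 5′ to 3′ on the strand of the gene, and capitals mark GAGGAA or its reverse complement TTCCTC, the core that the myeloid factor PU.1 is known to bind.
Elane (chr10:79886062-79886361, plus strand): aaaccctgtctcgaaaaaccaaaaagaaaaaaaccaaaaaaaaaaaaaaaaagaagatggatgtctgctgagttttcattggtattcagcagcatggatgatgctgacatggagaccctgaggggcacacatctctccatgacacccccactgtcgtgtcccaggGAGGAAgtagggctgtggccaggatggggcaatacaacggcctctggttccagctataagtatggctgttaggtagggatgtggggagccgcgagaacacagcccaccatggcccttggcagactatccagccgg
Prtn3 (chr10:79879417-79879716, plus strand): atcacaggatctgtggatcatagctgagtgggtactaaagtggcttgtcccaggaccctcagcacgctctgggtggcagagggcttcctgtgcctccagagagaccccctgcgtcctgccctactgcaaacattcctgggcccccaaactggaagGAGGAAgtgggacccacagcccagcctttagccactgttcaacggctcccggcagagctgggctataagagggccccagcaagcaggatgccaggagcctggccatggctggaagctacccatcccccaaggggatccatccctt
Mpo (chr11:87793534-87793833, plus strand): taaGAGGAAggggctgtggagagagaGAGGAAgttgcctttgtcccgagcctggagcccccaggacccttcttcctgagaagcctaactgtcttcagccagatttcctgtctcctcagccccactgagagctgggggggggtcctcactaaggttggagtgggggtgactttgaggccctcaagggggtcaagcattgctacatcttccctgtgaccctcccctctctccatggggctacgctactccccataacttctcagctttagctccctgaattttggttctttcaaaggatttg
Ctsg (chr14:56102525-56102824, minus strand): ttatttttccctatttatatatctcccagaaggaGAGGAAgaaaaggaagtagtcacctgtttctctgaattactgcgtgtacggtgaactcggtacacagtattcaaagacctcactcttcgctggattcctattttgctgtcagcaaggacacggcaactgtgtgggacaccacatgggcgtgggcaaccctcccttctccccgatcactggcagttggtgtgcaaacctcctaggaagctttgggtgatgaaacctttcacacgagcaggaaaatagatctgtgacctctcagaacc

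All 4 windows hold this core, *Mpo* with 2 matches and the others with 1 each, and 28.3% of the 32851 RefSeq promoters of this length hold it. AACGG (or CCGTT), a core of MYB sites, has 1 match in the *Elane* and 1 in the *Prtn3* window and none in those of *Mpo* and *Ctsg*, and 17.4% of all promoters hold it. TGTGGT (or ACCACA), a core of RUNX sites, has 1 match in the *Ctsg* window only, and 16.8% of all promoters hold it. TTGCNNAA (or TTNNGCAA), a form of the C/EBP site, matches none of the 4 windows, and 10.8% of all promoters hold it. Matches of these letters are descriptions of the windows and were not tied to a binding event here, and the RefSeq starts of *Elane*, *Prtn3* and *Mpo* differ from the gene starts of the GENCODE M21 annotation given above.

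The genes called secondary granule genes here, the 6 of the rule, were present in most primary-granule cells, with *Ltf* as the exception. At least 1% of UMIs came from the 6 genes in 326 of 401 cells. Over these 401 cells the 6 genes made up 7.76% of UMIs, of which *S100a8* gave 2.61% and *S100a9* 3.17%. The share of the 6 genes thus came mainly from *S100a8* and *S100a9*. In the 170 cells with 1% to 10% of UMIs from the 6 genes, these 2 were at 1.75% and 2.02%. There *Ngp* was at 0.835%, *Camp* at 0.11%, *Lcn2* at 0.0224% and *Ltf* at 0%. The name secondary granule genes thus stands for the set of the rule, and a cell can reach 1% mainly by *S100a8* and *S100a9*. *S100a8* and *S100a9*, the subunits of calprotectin, were detected in 92.3% and 91.5% of the cells, *Ngp* in 82.3%, *Lcn2* (lipocalin 2, a siderophore binder) in 71.3% and *Camp* (the cathelicidin precursor) in 64.6%. *Ltf* (lactoferrin, the iron-binding protein that defines specific granules) was detected in 21 cells, or 5.24%, against 64.1% of secondary-granule cells and 0.625% of the other kept cells at median depths of 8400, 2770 and 9358.5 UMIs.

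In the 10 pools, *Ltf* in primary-granule cells ranged from 0% through a median of 0.000744% to 0.00251% of UMIs, and in secondary-granule cells from 0.194% through 0.306% to 0.476%. *Lcn2* ranged from 0.0233% through 0.0744% to 0.115% and from 0.857% through 1.11% to 1.72%. *Ngp* ranged from 0.834% through 1.34% to 2.70% and from 1.77% through 3.21% to 3.76%. Pool values of *Ltf* and *Lcn2* did not overlap between the groups, and those of *Ngp* did. All 3 are among the genes by which secondary-granule cells were chosen, so these values are a description and carry no test. Even in the 156 primary-granule cells with at least 10% of UMIs from the 6 genes, where *Ngp* was at 2.92% and *Camp* at 1.88%, *Ltf* was at 0.00363% of UMIs and *Lcn2* at 0.175%.

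For all other genes, UMI counts were summed per pool and group and compared over 10 pools (373 primary-granule and 2004 secondary-granule cells) with edgeR's quasi-likelihood test and the pool as a block. Values are CPM, counts per 1000000 UMIs outside the 10 genes of the rule, fold changes are log2 of primary- over secondary-granule cells with their standard errors, and p are adjusted by the Benjamini-Hochberg method over 4561 tested genes. Of these, 62.5% passed an adjusted p of 0.05, 28.3% as higher and 34.2% as lower in primary-granule cells, and the pools of both groups did not overlap for 11.3%; the median log2 fold change of all genes was -0.06. The cells were chosen by transcripts that follow neutrophil maturation, so a gene that goes with these transcripts differs in part by that choice.

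The low-count filter matters for how single genes are read. A gene was tested if it reached 26.2 CPM in at least 10 of the 20 sums. Of the tested genes, 208 reached this limit in fewer than 5 of the 10 pools of secondary-granule cells, so that they were tested only through primary-granule cells, and of these 175 were higher and 0 lower. Another 540 were tested only through secondary-granule cells, of which 446 were lower and 0 higher. The choice of genes thus favored these directions, and the values of such genes are given as a description with no p. Of the 3813 genes that reached the limit through both groups, 29.3% were higher and 29.2% lower.

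Among the 13 tested genes for other azurophil granule proteins and their processing, 5 were higher, 3 were lower and 5 did not pass. Of all genes, 28.3% were higher and 34.2% lower, and the list had a median log2 fold change of 0.11. Of the 11 tested through both groups, 3 were higher and 3 lower, near the 29.3% and 29.2% of all such genes. *Prss57* and *Nkg7* were tested through primary-granule cells only. *Prss57* ranged over the pools from 118 through a median of 168 to 295 CPM in primary-granule cells and from 6.24 through 20.5 to 33.4 CPM in secondary-granule cells, and the groups did not overlap (log2 fold change 3.17 ± 0.21). *Srgn* (serglycin, the proteoglycan that holds granule proteases) was at 2610 to 6136 CPM against 1123 to 2314 CPM, with medians of 4047 and 1797 and no overlap (1.32 ± 0.13, edgeR adjusted p = 4.57e-08). *Nkg7*, a granule membrane protein known from cytotoxic lymphocytes, was at 143 to 495 CPM with a median of 255 against 7.3 to 36.9 CPM with a median of 18.4 (4.09 ± 0.18).

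The lysozyme genes went the other way. *Lyz2* was at 484 to 2486 CPM with a median of 1736 in primary-granule cells, below all pools of secondary-granule cells at 5048 to 13811 CPM with a median of 10061 (-2.55 ± 0.14, edgeR adjusted p = 6.47e-11). *Lyz1*, a near copy with which reads may be shared, was also lower (-2.29 ± 0.22). *Gusb* (0.51) and *Man2b1* (0.36), both lysosomal hydrolases, were higher, and *Fuca1* (-0.45), a lysosomal fucosidase, was lower, and each of these 3 lost its call when 1 of several pools was left out. *Ctsc*, the protease that activates the granule serine proteases, had a log2 fold change of -0.36 ± 0.23 that did not pass (edgeR adjusted p = 0.194).

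Of 15 tested promyelocyte and preNeu markers, 9 were higher and 6 were lower, against 28.3% higher and 34.2% lower of all genes. *Ms4a3*, a membrane protein used as a marker of granulocyte and monocyte progenitors, was at 869 to 1300 CPM with a median of 1017 against 66.8 to 168 CPM with a median of 115 (3.26 ± 0.13, edgeR adjusted p = 8.78e-13). *Plac8* was at 2096 to 5965 CPM with a median of 3502 against 221 to 580.3 CPM with a median of 379.7 (3.31 ± 0.13, edgeR adjusted p = 6.91e-13). Both genes separated all pools of the groups. The glutathione transferase *Gstm1* (2.65 ± 0.18) and the small GTPase *Rab44* (1.39 ± 0.16) were also higher without overlap. The lower markers included *Chil3*, *Mgst1*, *Hp*, *Hsd11b1* and *Trem3*, with log2 fold changes between -1.68 for *Chil3*, which encodes a chitinase-like protein, and -0.50 for *Trem3*.

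By size of change, the 10 genes that rose most among those higher in 10 of 10 pools were *Nkg7*, *Myl10*, *Plac8*, *Ms4a3*, *Prss57*, *Gstm1*, *Spint2*, *Gatm*, *Myb* and *Tma16*, with log2 fold changes from 4.09 to 2.51. Of these, *Plac8*, *Ms4a3* and *Gstm1* were tested through both groups and the other 7 through primary-granule cells only. *Spint2* encodes an inhibitor of serine proteases and was at 50.8 to 109.6 CPM against 8.2 to 31.6 CPM (2.61 ± 0.20). *Gatm* encodes the first enzyme of creatine synthesis (2.59 ± 0.19).

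Of 20 genes of later granules outside the rule, the 18 that were tested were lower, against 34.2% of all genes, with a median log2 fold change of -2.18. *Arg1* and *Slc11a1* were not tested. The secondary-granule cells were chosen by genes of the same granules, and 5 of the 18, with *Mmp8*, *Mmp9* and *Ly6g* among them, were tested only through these cells, so the count is a description. The other 13 were lower too. *Mmp8* (neutrophil collagenase of specific granules) was at 0 to 23.9 CPM with a median of 1.51 in primary-granule cells and at 238 to 1473 CPM with a median of 726 in secondary-granule cells (27 UMIs against 5791 over the pools). *Ly6g*, the surface marker of mouse neutrophils, was at 0 to 15.5 CPM with a median of 2.75 against 157 to 659 CPM with a median of 360.4 (20 against 3129 UMIs). *Olfm4*, a glycoprotein of a subset of specific granules, was at 19.1 to 386 CPM with a median of 161 against 727 to 3677 CPM with a median of 2194 (-3.31 ± 0.22, edgeR adjusted p = 4.83e-10). None of these 3 overlapped between the groups. *Mmp9* (gelatinase) had 10 against 1322 UMIs, and *Adam8* and *Cd177* had log2 fold changes of -3.72 and -3.43.

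The 30 mature neutrophil genes summed to 4698 to 7898 CPM with a median of 5938 in primary-granule cells against 6184 to 14573 CPM with a median of 10805, and single genes ran from near 0 to the median of 4047 CPM of *Srgn*. *Msrb1* had a median of 540.1 CPM and *Clec4e* one of 194 CPM in primary-granule cells. Of 22 tested, 19 were lower, against 34.2% of all genes, 2 did not pass (*Slpi* and *Ifitm2*) and 1, *Srgn*, was higher, which is also an azurophil granule gene. Of the 22 genes, 9, with *Fpr1*, *Fpr2* and *Cxcr2* among them, were tested only through secondary-granule cells; of the other 13, 10 were lower and 1 was higher. *Retnlg*, a resistin-like cytokine, was at 0 to 183 CPM with a median of 6.73 against 926 to 5066 CPM with a median of 3194 (107 against 26229 UMIs). *Cxcr2*, the receptor for the chemokines that draw neutrophils out of marrow, was at 0 to 10.7 CPM with a median of 2.19 against 32.8 to 83.4 CPM with a median of 56.7 (8 against 406 UMIs). The formyl peptide receptor genes *Fpr1* and *Fpr2* had 3 and 6 UMIs over the 10 pools of primary-granule cells. For *Fpr1* the level in secondary-granule cells was 85.9 times that in primary-granule cells, with an exact 95% counting interval of 29.3 to 418. *Plbd1*, which encodes a phospholipase B-like protein, had 1 UMI against 1134, a ratio of 529 with an interval of 94.7 to 20901. It too was tested only through secondary-granule cells. The ratios of *Fpr1* and *Plbd1* are thus a description, and their intervals cover counting error only. *Ifitm6*, *Stfa2l1* and *Pira2*, members of multigene families in which reads may be shared, had 27, 5 and 8 UMIs in primary-granule cells against 6292, 909 and 984.

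All 7 subunits of the NADPH oxidase, which makes superoxide in the phagosome, were lower (median log2 fold change -0.80), against 34.2% of all genes. *Cybb*, its catalytic subunit, was at 191 to 621 CPM with a median of 375 against 581 to 1863 CPM with a median of 1306, lower in 10 of 10 pools although the ranges overlapped (-1.59 ± 0.14, edgeR adjusted p = 1.07e-08). The cytosolic subunits *Ncf1* (-1.38) and *Ncf4* (-0.51) and the partner *Cyba* (-0.80) were lower too.

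**Figure D4:**
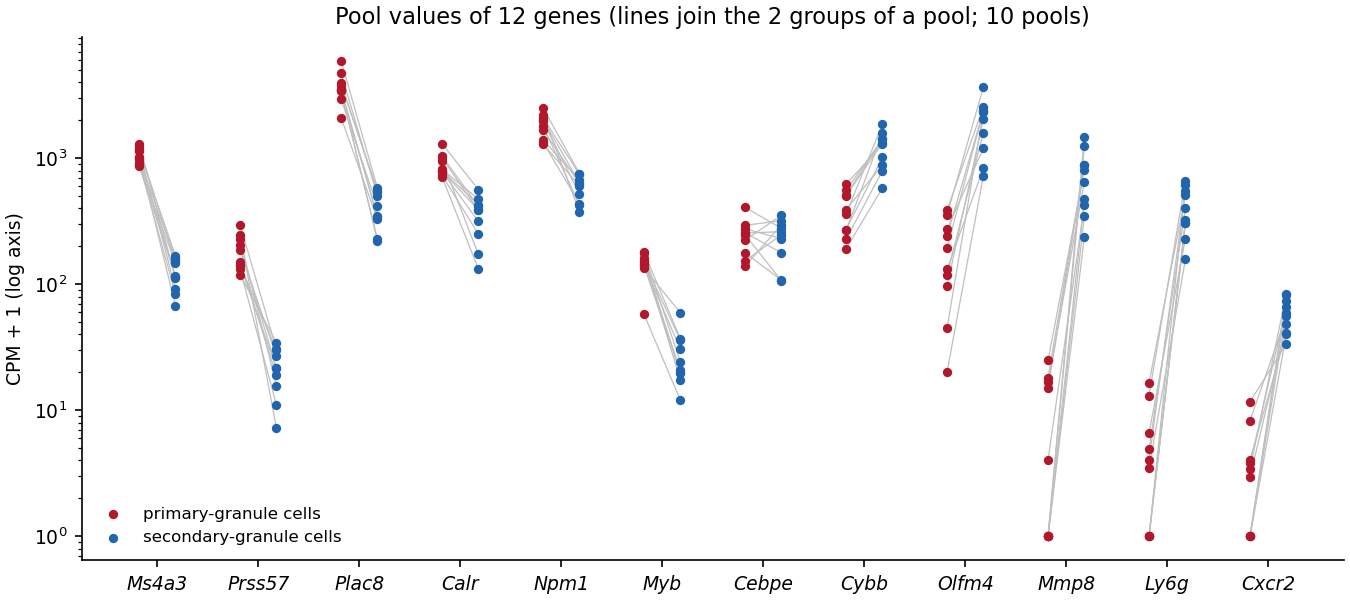
CPM plus 1 on a log axis for 12 genes in the 10 pools, with lines that join the primary-granule (red) and secondary-granule cells (blue) of a pool. The pool ranges are separate for *Ms4a3*, *Prss57*, *Plac8*, *Calr*, *Npm1*, *Olfm4*, *Mmp8*, *Ly6g* and *Cxcr2* and overlap for *Myb*, *Cebpe* and *Cybb*.

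Among 20 tested myeloid transcription factors, 2 were higher, 14 were lower and 4 did not pass, against 28.3% higher and 34.2% lower of all genes. Of the 15 tested through both groups, 1 was higher and 11 were lower. *Myb* was tested only through primary-granule cells, and *Cebpa*, *Klf4* and *Nr4a1* only through secondary-granule cells. *Myb*, which keeps progenitors immature, was at 56.7 to 178 CPM with a median of 147 against 11 to 58.4 CPM with a median of 21.5, higher in 10 of 10 pools, with pool 18 the lowest (2.52 ± 0.17). *Xbp1*, a factor of the secretory pathway, was higher by 0.34 ± 0.15, a call that was lost without pool 6, 9, 17 or 18. *Cebpe*, which drives the secondary granule program, was at 138 to 407 CPM with a median of 249.9 against 106 to 352 CPM with a median of 253, higher in 5 of 10 pools, and did not pass (0.19 ± 0.18, edgeR adjusted p = 0.378).

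The other factors that did not pass were *Runx1* (-0.37 ± 0.21), *Etv6* (0.47 ± 0.24) and *Stat3* (-0.20 ± 0.16). *Spi1* (PU.1) fell by 0.88 on the log2 scale, *Cebpa* fell by 0.48 and *Cebpb*, the C/EBP factor of emergency granulopoiesis, fell by 0.81; the call for *Cebpa* was lost without pool 4, 7, 9, 11, 14 or 17. The largest decreases were those of *Id2* (-2.55), *Nr4a1* (-1.91), *Klf4* (-1.90), *Klf2* (-1.84) and *Fos* (-1.63), of which *Nr4a1*, *Fos*, *Junb* (-1.12) and *Egr1* are immediate early genes that cell dissociation is known to induce. *Cebpd* (-0.40), *Ikzf1* (-0.89), *Mef2c* (-1.21) and *Zeb2* (-0.56) were lower as well. *Gfi1*, the repressor needed for neutrophil commitment, was too low to be tested, at 15.1 to 79.8 CPM with a median of 28.8 against 0 to 37.5 CPM with a median of 9.81.

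Of 13 tested receptors, 2 were higher and 11 lower, against 28.3% higher and 34.2% lower of all genes. Of the 9 tested through both groups 1 was higher and 8 were lower, against 29.3% and 29.2% of all such genes. *Kit* was tested only through primary-granule cells, and *Cxcr2*, *C5ar1* and *Ccr1* only through secondary-granule cells. *Kit*, the stem cell factor receptor of early progenitors, was at 20.6 to 111 CPM with a median of 59.3 against 10.5 to 49.2 CPM with a median of 16.1 (1.36 ± 0.27), and *Ifngr1*, a chain of the interferon gamma receptor, was higher by 0.57 ± 0.12. *Csf3r*, the receptor for granulocyte colony-stimulating factor, was at 19.1 to 48.4 CPM with a median of 31.4 against 45.1 to 84 CPM with a median of 61.4, lower in 10 of 10 pools (-0.78 ± 0.16, edgeR adjusted p = 0.000331). The complement receptor *C5ar1* (-3.31), the chemokine receptor *Ccr1* (-2.44), *Tlr2* (-1.66), *Il17ra* (-1.46), *Csf2rb* (-1.25), *Cxcr4* (-1.23), *Tnfrsf1b* (-0.78), *Csf2ra* (-0.49) and *Tnfrsf1a* (-0.49) were lower. *Cd34*, not tested, was at 0 to 64.2 CPM with a median of 26.8 in primary-granule cells and at 0 to 3.97 CPM with a median of 0 in secondary-granule cells.

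Genes that build proteins and fold them for secretion were higher in primary-granule cells. Of 25 tested ER chaperones and folding enzymes, 20 were higher and 1, *Ddit3* (the stress factor CHOP, -0.47), was lower, with a median log2 fold change of 0.77 against 28.3% of all genes higher. *Sec61b*, a subunit of the channel into the ER, was at 1294 to 1830 CPM with a median of 1434 against 402 to 661 CPM with a median of 452 (1.65 ± 0.11, edgeR adjusted p = 3.7e-10). *Calr* (calreticulin, which folds myeloperoxidase among other glycoproteins) was at 709.8 to 1301 CPM with a median of 808 against 131 to 564 CPM with a median of 387 (1.51 ± 0.15, edgeR adjusted p = 6.63e-08). Neither overlapped between the groups. *Sdf2l1* (2.25), *Manf* (1.60), *Ssr4* (1.55) and *Pdia6* (1.54) completed the 6 largest changes.

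Of 17 tested ribosome biogenesis genes, 16 were higher, against 28.3% of all genes, with a list median of 1.17. The other, *Gnl3* (0.44 ± 0.24), did not pass. *Npm1*, the nucleolar protein nucleophosmin, was at 1293 to 2516 CPM with a median of 1888 against 376 to 756 CPM with a median of 617 (1.76 ± 0.13, edgeR adjusted p = 9.39e-10). The snoRNP proteins *Gar1* (2.24) and *Fbl* (2.00) and the pre-60S factor *Wdr12* (1.91) led the list. Of the 11 genes tested through both groups 10 were higher, and *Gar1* and *Wdr12* were tested only through primary-granule cells. Among ribosomal protein genes, a list added after the values were seen, 85 of 88 were higher and 1 was lower, with a median of 1.10. *Rpl* and *Rps* transcripts made up 12.4% to 16.8% and 10.9% to 15.1% of the UMIs of primary-granule cells in the 10 pools, against 5.02% to 7.71% and 4.35% to 6.5% in secondary-granule cells.

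These levels matter for how such cells are kept. The methods of the study give limits of 20% *Rpl* and 15% *Rps* UMIs. If a cell past either limit is removed, 105 of 401 primary-granule cells (26.2%) and 2 of 2061 secondary-granule cells (0.097%) go, and if only a cell past both is removed, 24 and 0 go. By bin the removal at either limit would remove 54.7% of the primary-granule cells with under 1% of UMIs from secondary granule genes, 35.3% of those with 1% to 10% and 2.56% of those with 10% or more. With removal at either limit the mean share over pools was 0.354% in place of 0.472%.

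Energy metabolism genes were higher for the respiratory chain. Of 31 nuclear-encoded respiratory chain subunits, 28 were higher, against 28.3% of all genes, and none was lower, with a median of 0.50. *Atp5g1*, a subunit of the proton ring of ATP synthase, was at 510.2 to 812 CPM with a median of 599 against 179 to 338 CPM with a median of 226 (1.45 ± 0.12, edgeR adjusted p = 3.84e-09). *Ndufa4* (1.23), *Cox7b* (1.20) and *Ndufc2* (0.99) followed. All 12 tested genes of the mitochondrial genome, a list added after the values were seen, were higher with a median of 1.10, beside mitochondrial shares of 3.77% to 6.80% of UMIs in primary-granule cells and 1.69% to 3.12% in secondary-granule cells. Of 15 glycolysis genes, 3 were higher and 5 were lower, shares near the 28.3% and 34.2% of all genes. The lower genes include the glucose transporter genes *Slc2a3* (-1.70) and *Slc2a1* (-1.13), both tested only through secondary-granule cells. The count was 7 higher and 1 lower without called doublets, and 7 and 2 without cells over 1% stromal UMIs.

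Myeloperoxidase carries heme. *Alas1*, the first and rate-limiting enzyme of heme synthesis, was at 117 to 606 CPM with a median of 404 against 117 to 361 CPM with a median of 239, higher in 8 of 10 pools (0.70 ± 0.17, edgeR adjusted p = 0.00166).

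Among cell cycle genes, part of the DNA replication list was higher, and the count of lower mitosis genes depended on the cells and pools kept. Of 25 tested DNA replication genes, 13 were higher, against 28.3% of all genes, and none was lower, with a median of 0.59. *Dut*, which keeps uracil out of DNA, was at 239 to 429 CPM with a median of 312 against 76.6 to 246 CPM with a median of 154 (1.19 ± 0.18, edgeR adjusted p = 1.56e-05), and the 6 subunits of the MCM helicase, *Mcm2* to *Mcm7*, were higher by 0.73 to 0.95, with *Mcm2* tested only through primary-granule cells. *Pcna* (-0.22), *Rrm1* (-0.13) and *Rrm2* (-0.53), which serve the same phase, did not pass. Of 26 mitosis genes, 13 were lower, against 34.2% of all genes, 1 was higher (*Cks2*, 0.40) and 12 did not pass, with a median of -0.45. *Mki67*, the proliferation marker, was at 64.2 to 242 CPM with a median of 123 against 118 to 425 CPM with a median of 318 (-1.10 ± 0.20, edgeR adjusted p = 8.28e-05), and *Cenpf*, *Kif23* and *Nusap1* had log2 fold changes of -1.40, -1.21 and -1.15.

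The count of lower mitosis genes was 5 of 26 with removal at either ribosomal limit and 5 to 7 without any one of pools 4, 7, 8, 9, 12 and 14, and it was 18 of 25 without called doublets and 19 of 28 without cells over 1% stromal UMIs. In secondary-granule cells a part of the transcripts lay in few cells: 70 of 2061 had at least 1% of UMIs from the mitosis list. These held 20.9% of its UMIs. Of primary-granule cells, which had a median of 8400 UMIs per cell against 2770, 4 of 401 did and held 3.31%. All 4 of these primary-granule cells and 67 of the 70 secondary-granule cells had at least 10% of UMIs from the 6 secondary granule genes. Over all cells the list made up 0.28% of UMIs in primary-granule and 0.268% in secondary-granule cells with the genes of the rule counted in, and the median share per cell was 0.202% of a cell's UMIs in primary-granule and 0.0663% in secondary-granule cells.

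Among lists of other functions, the immunoproteasome genes *Psmb8* (1.68), *Psmb9* (0.89) and *Psmb10* (1.44, tested only through primary-granule cells) were higher while *B2m* (-0.61), *H2-K1* (-0.32) and *H2-D1* (-0.83), which encode class I histocompatibility proteins, were lower. *H2-K1* turned to 0.11 without called doublets and to 0.20 without cells over 1% stromal UMIs, and passed in neither. Of the interferon-stimulated genes, *Ifitm3* (-2.22) was lower and *Bst2* (0.76) was higher.

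**Figure D5:**
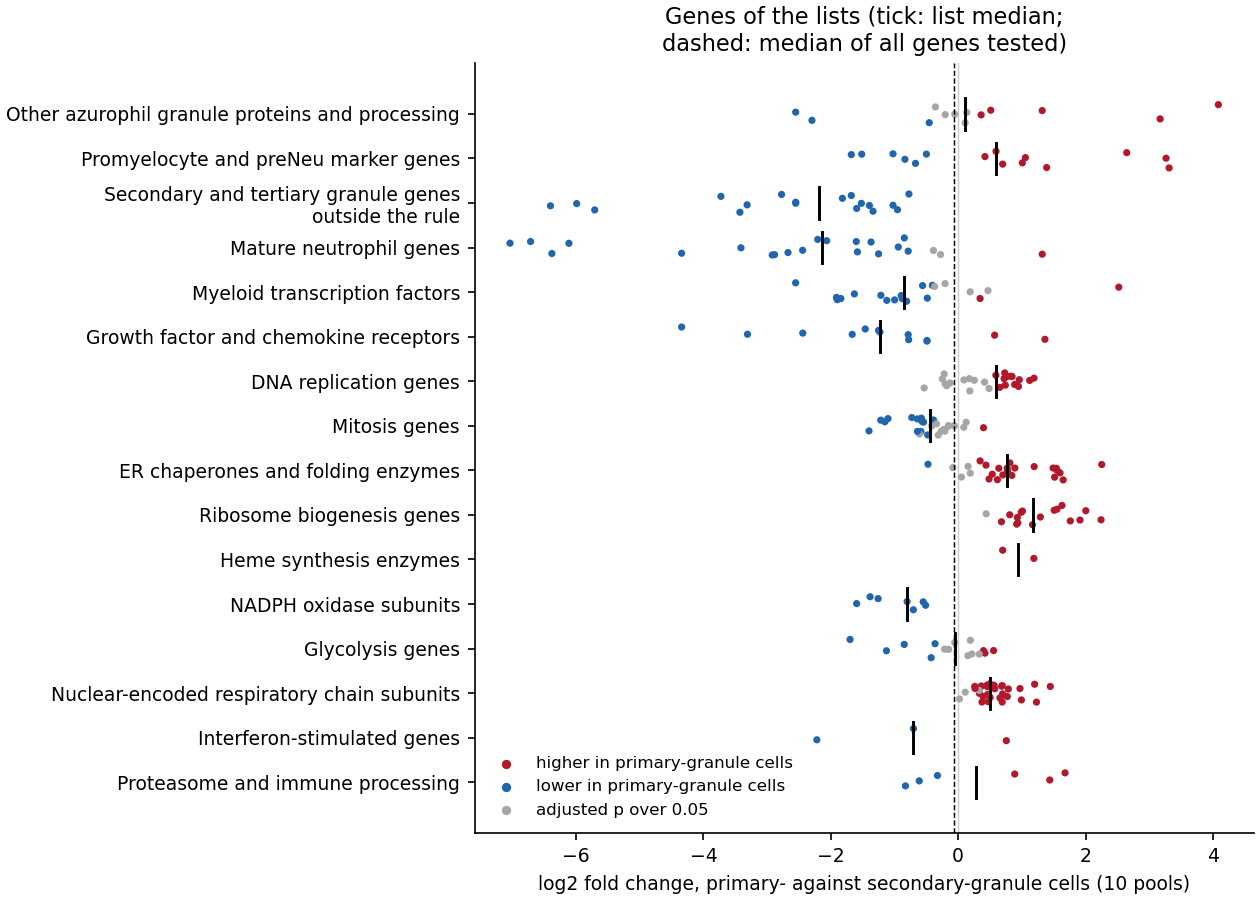
Log2 fold changes of the tested genes of 16 lists, primary- against secondary-granule cells over 10 pools. Red points are higher, blue lower and gray did not pass; ticks are list medians, from -2.18 for genes of later granules to 1.17 for ribosome biogenesis, and the dashed line is the median of all 4561 genes (-0.06).

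Among markers of other cells, those of mast cells and basophils were gathered in few primary-granule cells. Summed over the 6 mast cell and basophil markers *Cpa3*, *Mcpt8*, *Prss34*, *Ms4a2*, *Fcer1a* and *Gata2*, the level ranged from 0 through a median of 76.9 to 1486 CPM over the pools of primary-granule cells and from 0 through 1.6 to 44.8 CPM in secondary-granule cells, and all 6 were detected in both groups. At least 0.1% of UMIs came from these markers in 12 primary-granule cells of 4 pools, 11 of which had under 1% of UMIs from secondary granule genes. In these 12 cells *Prss34* and *Mcpt8*, proteases of basophils, stood at 10388 and 7241 CPM. *Ctsg* was detected in 12 of the 12, *Mpo* in 10, *Prtn3* in 7 and *Elane* in 4, so that these cells met the rule by *Ctsg* and *Mpo* and go against the label of neutrophil precursors. This cutoff was chosen after the values were seen, and leaving such cells out of both groups gave 2809 called genes in place of 2852.

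The 5 macrophage markers summed to 9.53 to 142 CPM in primary-granule cells against 36.9 to 287 CPM. The 7 monocyte precursor markers summed to 256 to 1001 CPM with a median of 526, against 471 to 1140 CPM with a median of 818. The 5 progenitor markers summed to 51.5 to 229.5 CPM with a median of 134 against 50.5 to 355 CPM with a median of 78.2. The 4 stromal markers summed to 876 to 7330 CPM with a median of 3442 against 2515 to 31626 CPM with a median of 17862, lower in 10 of 10 pools. Eosinophil (0 to 41.8 CPM), erythroid (0 to 7.31), B cell (0 to 36.3), endothelial (7.98 to 36.3) and megakaryocyte markers (7.31 to 33.3) were low in primary-granule cells, with *Hbb-bs*, *Hba-a1*, *Pax5* and *Ppbp* at 0 UMIs. Of the T and NK cell markers, *Trac* and *Cd3e* were at 0, and *Nkg7*, named above, gave 143 to 495 CPM of a sum of 143 to 495 CPM.

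Primary-granule cells differed among themselves in their share of the secondary granule genes. Whether the bins of this share are steps of a single path or hold different kinds of cells was not tested. In the 75 cells with under 1% of UMIs from these genes the median depth was 13326 UMIs and 3166 genes, in the 170 cells with 1% to 10% it was 8442.5 and 2282, and in the 156 cells with at least 10% it was 7231 and 1876.5. *S100a8* was at 0.0816% of UMIs in the first bin, above the 0.00207% in kept cells of neither group. In the 64 cells of the first bin without basophil markers, *Cd34* was at 90.9 CPM, *Irf8*, a factor of monocyte and dendritic fate, at 66.1 CPM and *F13a1*, a monocyte precursor gene, at 305 CPM. Their levels were 14.2, 5.40 and 89 CPM in the second bin and 2.06, 0 and 40.2 CPM in the third. *Cebpe* went the other way, at 68.2, 230 and 398 CPM, and *Ly6c2* stood at 140.5, 276 and 529 CPM. Bins are sums over cells of up to 15 pools and carry no test. In the cells under 1%, *Irf8* was at 198 CPM in pool 12 and at 13.7 and 4.75 CPM in pools 11 and 18.

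Cells with at least 1% of UMIs from the 6 genes (121 cells) were compared with those under 1% (41 cells) in the 3 pools with at least 10 of each, pools 11, 12 and 18. The former are called cells with secondary granule transcripts, though *S100a8* and *S100a9* alone can meet this limit. Of 2610 tested genes, 8.28% passed, 5.29% as higher and 2.99% as lower in the cells with secondary granule transcripts, and the pools did not overlap for 22.1%. Genes tested only through the cells with these transcripts (333 genes, 45 higher and 0 lower) or only through those without (251 genes, 24 lower and 0 higher) again had a favored direction, and are given as a description with no p. Of the 2026 genes that reached the limit, here 51.1 CPM, through both, 4.59% were higher and 2.67% lower. With 3 pools and few cells the calls moved with the tool: edgeR called 216 genes, DESeq2 73, edgeR without the pool as a block 50, and edgeR on run 2 of the same droplets 106. Without pool 12 the count was 111.

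*Cebpe* was at 428, 440 and 323 CPM in pools 11, 12 and 18 with secondary granule transcripts and at 34.3, 92.2 and 109 CPM without, with no overlap (log2 fold change 2.23 ± 0.32, edgeR adjusted p = 0.00137). Its level thus differed within primary-granule cells where it had not passed between them and secondary-granule cells, and the difference of these effects was not tested. *Fcnb* (ficolin B, a lectin of early granulocytes) was at 504, 189 and 209.8 CPM against 13.7, 6.59 and 0 CPM (210 against 3 UMIs). *Wfdc21* was at 655, 372 and 1084 CPM against 6.86, 6.59 and 38 CPM (601 against 10 UMIs). Both were tested only through the cells with secondary granule transcripts.

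All 12 tested genes of later granules outside the rule were higher, against 5.29% of all genes, with *Chil3* (3.89) and *Pglyrp1* (2.74) after *Wfdc21* and with *Olfm4*, *Orm1* and *Mcemp1* at 234, 244 and 81 UMIs against 5, 6 and 5; *Mmp8*, *Mmp9*, *Ly6g* and *Cd177* were too low to be tested. The split was made on genes of the same granules, and 6 of the 12 were tested only through the cells with these transcripts, so this direction was likely from the start and the count is a description. Of 14 promyelocyte and preNeu markers, 8 were higher, against 5.29% of all genes, and none was lower. Only 11 were tested through both groups of cells, and 5 of these were higher, against 4.59% of all such genes. The other 3 were tested only through the cells with secondary granule transcripts. *Chil3* stands in this list and in that of later granules. *Ms4a3* was at 1045, 1262 and 1121 against 666, 692 and 566 CPM (0.81 ± 0.16). Of 7 NADPH oxidase subunits, 5 were higher, from *Ncf4* (1.77) to *Ncf1* (1.31). Of 12 azurophil granule genes, 5 were higher, among them *Prss57* (1.37 ± 0.29), and *Ctsc*, tested only through the cells without secondary granule transcripts, had 15 UMIs against 44. The calls for *Ms4a3*, *Prss57* and *Ctsc* were lost without pool 12, and that for *Ctsc* also without pool 11. *Lrg1*, *Slc40a1*, *B230208H11Rik* and *G0s2*, outside the lists, had 113, 64, 57 and 99 UMIs in the cells with secondary granule transcripts against 2, 3, 3 and 8 in those without.

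Of the 8 lower genes named by size here, *Ccl9* (-2.32) was tested through both groups of cells and the others only through the cells under 1%. *F13a1* was at 37.9, 48.3 and 29.6 CPM against 357, 461 and 162 CPM (28 UMIs against 156), *Ctla2a* had 19 against 111 UMIs, *Emb* 60 against 238 and *Arl5c* 13 against 51. *Tcof1*, *Trap1* and *Rgs1* had 12, 18 and 21 UMIs against 30, 41 and 47. Of 16 ribosome biogenesis genes, 5 were lower, against 2.99% of all genes, and none was higher. Of the 9 tested through both groups of cells, 3 were lower, against 2.67% of all such genes. *Npm1* was at 1284, 1378 and 1901 against 2971, 2786 and 3604 CPM (-1.07 ± 0.15, edgeR adjusted p = 0.000968). The ER proteins *Calr* (-0.99) and *Canx* (-0.79) were lower, and the other 21 of 23 ER genes did not pass. Without pool 12, 1 ribosome biogenesis gene and *Calr* alone of the ER genes were lower. *Sparc* (1.12) and *Col1a1* (1.22), stromal genes, were higher in the cells with secondary granule transcripts. Without cells over 1% stromal UMIs 2 pools with 76 and 28 cells were left, 236 of 2871 tested genes were called, and *Sparc* and *Col1a1* did not pass. Basophil markers went the opposite way: *Mcpt8* was at 5.42, 33.8 and 5.38 CPM with secondary granule transcripts against 41.2, 342 and 1840 CPM without, and *Prss34* was at 0 in the 3 pools against 0, 151 and 1678 CPM. Without basophil-marked cells 34 of the 41 cells under 1% were left and 225 genes were called. Of 21 DNA replication genes none passed, and of 15 mitosis genes 1, *Ube2c*, was higher (1.37), though not without pool 12.

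The remaining lists had few calls, beside 5.29% higher and 2.99% lower of all 2610 tested genes, so a single call is not read as a result about its list. Among them, *Cebpd* (1.26) was the only other of 13 transcription factors to pass, with *Myb* at -0.66 ± 0.41 and *Spi1* at 0.46 ± 0.18. *Csf2ra*, tested only through the cells with these transcripts at 65 against 15 UMIs, was the only of 6 receptors to pass, with *Kit* at -0.36 ± 0.44. *Msrb1* (1.36) was higher and *Slpi* (-1.62) and *Ifitm2* (-1.36) lower among 8 mature neutrophil genes. *Slpi* was at 75.8, 150 and 91.4 CPM against 144, 224 and 590 CPM in pools 11, 12 and 18, and pool 18 also had the most basophil transcripts. *Atp5b* (-0.66) was lower among 31 respiratory chain subunits, *Alas1* (1.20) higher among 2 heme enzymes, *Ifitm3* (-1.71) lower among 2 interferon-stimulated genes, and none passed among 11 glycolysis and 6 immune processing genes.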

How the data were processed

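Single-cell RNA-seq of BMSC-OBs was made with 10x Genomics 3′ v2 chemistry in 16 pools, each sequenced in more than 1 run. The authors aligned the reads to GRCm38 and counted UMIs with Cell Ranger 5.0.0 (per the labels), and the deposited matrices hold UMI counts per gene and called barcode, before their further filters on ribosomal transcripts, doublets (Souporcell) and assignment to mice, which were not used here. Run 1 was analysed, at 53990642 to 100777353 UMIs per pool, and run 2 of the same droplets served as an alternative. Labels give the pool of each sample and no condition.

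Cells with 400 to 6200 genes and at most 10% mitochondrial UMIs were kept. Counts were summed per pool and cell group for pools with at least 10 cells in both groups, filtered with filterByExpr, scaled by TMM and tested with edgeR 4.0.16 (R 4.3.3; glmQLFit, glmQLFTest) with the pool as a block and Benjamini-Hochberg adjustment, with a call at an adjusted p of 0.05. The 10 genes of the rule stood outside tests and library sizes. Groups of a pool come from the same droplets and deviated together (correlation over genes 0.0866 or more in each of 10 pools, median 0.273; 0.171 or more in each of 3). The tests were checked on simulated counts. Genes were named by rank of log2 fold change among called genes with 1 direction in all pools and at least 50 CPM in the higher group (10 each way), by list (up to 6 called members) and, for factors and receptors, whatever the call; the members, the rule and the lists were chosen with earlier results of these data known, and genes named beyond these rules, such as *Srgn*, *Ctsc*, *Pcna*, *Mki67* and *Npm1*, were chosen as known members of their lists after the values were seen. Doublets were scored with simulated doublets and left in, except in an alternative. Shares were related with permutation tests of 100000 resamples (scipy 1.17.1; 2e-05 is close to the smallest p these can give) and with exact tests within subsets. Alternatives were DESeq2 1.42.0, other size factors and filters, no block, other cell limits, thinning to 1000 UMIs and each pool left out. Some genes that the rules name are not reported here. Genes expressed as near copies may share reads. Intervals cover counting error only. Coordinates are those of GENCODE M21.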

Additional observations from a re-analysis of the deposited data

Results flagged for a closer look

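Sets of 10 pool values were screened for a highest or lowest pool far from the rest (gap to the nearest pool over the whole range above 0.466). Of 100 such sets 14 stood out, and chance alone flags about 1 in 20 sets where values are independent and normally distributed. Several of these sets are bounded at 0 or have a median of 0, and the rate for such sets was not measured.

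In primary-granule cells, *Gfi1* was highest in pool 17 at 79.8 CPM against a median of 28.8, and *Mki67* in pool 6 at 242 CPM against 123. *Myb* was lowest in pool 18 at 56.7 CPM against 147. *Ngp* was highest in pool 14 at 2.70% of UMIs against 1.34%. The summed macrophage markers reached 142 CPM in pool 11 (median 31.6), the eosinophil markers 41.8 CPM in pool 12 (median 3.19) and the erythroid markers 7.31 CPM in pool 14 (median 0).

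In secondary-granule cells, *Mpo* was at 0.0247% of UMIs in pool 4 against a median of 0.00164%, and *Elane* at 0.0344% in the same pool against 0.00711%. *Ngp* was lowest in pool 18 at 1.77% against 3.21%. *Myb* was highest in pool 7 at 58.4 CPM against 21.5. The mast cell and basophil markers reached 44.8 CPM in pool 18 (median 1.60), the progenitor markers 355 CPM in pool 6 (median 78.2) and the erythroid markers 1.58 CPM in pool 8 (median 0).

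Among 16929 barcodes outside the limits on genes and mitochondrial UMIs, 78 (0.461%) had at least 0.5% of UMIs from the 4 primary granule genes, a signal in data that entered no comparison. Of these, 76 were over 10% mitochondrial UMIs, 58 failed by that alone, and 20 had fewer than 400 genes.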

How the results depend on the processing

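For primary- against secondary-granule cells the count of called genes, 2852, lay between 2355 and 2893 under the other settings, without the replicate block included (2661) and from 2537 to 2893 with 1 pool left out, except for 359 of 493 tested genes with cells thinned to 1000 UMIs and 4698 of 17135 with no low-count filter. For cells with against without secondary granule transcripts, 216 genes were called in the main setting, 73 with DESeq2, 50 without the replicate block, 106 in run 2, 512 with at least 5 cells per pool (6 pools), 368 with no low-count filter, 30 of 301 tested with thinned cells, and 111 to 260 with 1 pool left out (111 without pool 12). The cause of these differences was not tested. Limits of at least 20 cells, a primary share of at least 1% and the ribosomal limits left no pool for this comparison and were not run. *H2-K1* reversed to 0.11 without called doublets and 0.20 without cells over 1% stromal UMIs. Signs of genes that passed in neither setting were not counted as reversed: *Cebpe* was at -0.07 and -0.05 under those settings. The mean share of primary-granule cells stayed within 1 SD under every alternative. Its relation to the secondary-granule share kept its call except in the 7 pools above the gap (rho 0.214, r -0.0486). That split was chosen after seeing the data and narrows the range of the share, so the lost call is not read as a difference. Leaving out basophil-marked cells, also chosen after seeing the data, gave rho 0.876 and r 0.588. Genes such as *Gfi1* and *Cd34* were too low to be tested, and the part of depth in this was not measured.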
